A study of Arabidopsis thaliana with 4 samples.

Results

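The light-harvesting complex superfamily of Arabidopsis thaliana was followed as 30 genes, of 27416 gene models measured. They were listed by locus code, without a cut on expression, though the choice was made with earlier results of these data known. The members are LHCA1 to LHCA6, the 15 LHCB genes, the early light-induced genes ELIP1 and ELIP2, OHP1 and OHP2, SEP1 and SEP2, both LIL3 genes, and PSBS. All 30 were found once in each library, and all 30 passed the filter on low values, which was at least 1 RPKM in at least 2 libraries. RPKM is reads per length of transcript and per depth of library, and levels of different genes below are compared on this scale, which is per length.

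Seedlings called CNT1 (2 libraries) had the genotype 35S::CNT1-NLS-YFP;cry1. They were compared with seedlings called CNT1-G283E (2 libraries) of the genotype 35S::CNT1-G283E-NLS-YFP;cry1. CNT1 is the photolyase homology region at the N-terminus of cryptochrome 1, a blue-light receptor, here joined to YFP, a yellow fluorescent protein, and to a signal for import into the nucleus. Both genotypes were in the Col-0 ecotype, lacked functional cry1 and drove their transgene from 35S, a viral promoter active in most plant cells. On medium with 1% sucrose, seeds had 3 days of cold and 12 h of white light before blue light at 15 μmol/m2/s for 4 days. The labels name the material seedlings, with a growth time of 4.5 days, and the stated question was which genes CNT1 regulates. They do not say whether each genotype was 1 transgenic line or whether replicates were separate cultures, so p-values measure only how these samples spread, and that spread may be technical. Likewise, a line effect cannot be told apart from the transgene. Each log2 fold change is CNT1 minus CNT1-G283E, on log2(RPKM + 1). Below, rose and fell mean higher and lower in CNT1 than in CNT1-G283E. No seedlings without a transgene were measured, so a gain in CNT1 cannot be told apart from a loss in CNT1-G283E.

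Light-harvesting proteins bind chlorophyll and carotenoids in the thylakoid membrane and pass excitation energy to the photosystem cores. LHCA proteins form the antenna of photosystem I. LHCB1, LHCB2 and LHCB3 build the trimers of photosystem II, and LHCB4, LHCB5 and LHCB6 are its monomeric linkers. ELIP, OHP, SEP and LIL3 proteins are relatives, and OHP, SEP and LIL3 have fewer membrane helices, and PsbS senses lumen acidity in energy-dependent quenching. In seedlings, light raises transcripts of many of these nuclear genes during greening, and phytochromes and cryptochromes both take part.

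The depths behind the RPKM values, recovered from the values, were 28524534 and 28098772 reads in CNT1 and 27065174 and 24436863 reads in CNT1-G283E. The median difference between replicates was 3.85% in CNT1 and 5.44% in CNT1-G283E, against 19.7% to 20% between libraries of different groups. Markers of seedling tissues were checked: the summed RPKM of 5 green leaf genes outside the superfamily was 6851 and 6799.9 in CNT1 against 2446 and 2559 in CNT1-G283E. The counts of markers called stand beside all genes tested, of which 31.1% were higher in CNT1 and 29.0% lower (limma, adjusted p under 0.05). Of 17 root markers, 14 were tested, and 6 were lower in CNT1, with sums of 223 and 230 RPKM in CNT1 against 569 and 637 RPKM in CNT1-G283E. The 6 were the Casparian strip genes CASP1 to CASP5 and their regulator MYB36, while the 8 others tested, root hair genes and IRT1 among them, were not called. The number lower was 9 without CNT1-G283E replicate 1, with PRP1, PRP3 and RHS13 added, and 7 without CNT1-G283E replicate 2, with IRT1 added, where PRP3 was called higher. All 9 xylem and phloem markers were lower, with sums of 266 and 268 RPKM in CNT1 against 506 and 472 RPKM in CNT1-G283E. Of 5 epidermis markers, 3 were higher and 1 lower (1 higher without CNT1 replicate 2), with sums of 378 and 389.5 RPKM in CNT1 against 447 and 449 RPKM in CNT1-G283E. No marker was at 0 in all libraries, though 3 root cap genes averaged under 1 RPKM. The part of these markers in the antenna results was not tested, and in whole seedlings more cells of a green type and more RNA per cell cannot be told apart.

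The 5 LHCB1 genes carry the main finding, so the start of each coding sequence is shown here to display how alike the copies are. LHCB1.2 (chr1:10472280-10473502, minus strand), LHCB1.1 (chr1:10474656-10475969, minus) and LHCB1.3 (chr1:10477885-10479114, plus) lie side by side on chromosome 1 of TAIR10.1. LHCB1.5 (chr2:14522524-14523568, minus) and LHCB1.4 (chr2:14524607-14525918, plus) are neighbours on chromosome 2. The lines give the stretch aligned with the first 90 coding bases of LHCB1.3, from the RefSeq genome sequence, 5′ to 3′ on the gene's strand. Capitals mark bases that differ from LHCB1.3.
LHCB1.1: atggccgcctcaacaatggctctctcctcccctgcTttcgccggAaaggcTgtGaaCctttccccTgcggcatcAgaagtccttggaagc
LHCB1.2: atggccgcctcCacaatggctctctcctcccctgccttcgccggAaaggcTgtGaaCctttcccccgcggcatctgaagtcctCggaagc
LHCB1.3: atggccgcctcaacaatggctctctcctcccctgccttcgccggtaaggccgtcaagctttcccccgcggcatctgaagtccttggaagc
LHCB1.4: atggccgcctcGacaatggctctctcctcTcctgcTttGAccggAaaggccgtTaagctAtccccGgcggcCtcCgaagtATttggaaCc
LHCB1.5: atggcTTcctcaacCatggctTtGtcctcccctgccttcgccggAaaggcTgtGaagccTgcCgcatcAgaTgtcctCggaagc
In this stretch LHCB1.1 differed from LHCB1.3 at 7 bases and LHCB1.2 at 6, while LHCB1.4 differed at 14. LHCB1.5 differed at 13 and was shorter, with 84 bases. Over the whole coding sequence, the chromosome 1 copies were 95.6% to 96.4% identical to each other, LHCB1.4 and LHCB1.5 were 91.4% identical, and LHCB1.3 and LHCB1.5 were 89.3% identical. The longest identical run was 122 bases between LHCB1.4 and LHCB1.5, 119 bases between LHCB1.1 and LHCB1.3, and 47 bases between LHCB1.3 and LHCB1.5. Across the loci, the longest run was 50 bases, between LHCB1.4 and each of LHCB1.1 and LHCB1.2, and the highest identity was 90.4%, between LHCB1.2 and LHCB1.5. The sources used here do not give how reads matching several copies were assigned, so the split of reads among the chromosome 1 copies, and that between LHCB1.4 and LHCB1.5, is uncertain. The same holds for reads from stretches that are identical across the loci.

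Most antenna genes were higher in CNT1 than in CNT1-G283E, by unequal amounts. Of the 30 members, 26 were higher at an adjusted p under 0.05 (limma, Benjamini-Hochberg over 19201 genes), 2 were lower and 2 were not called. The background was high: 31.1% of all genes tested were called higher and 29.0% lower. At least 2-fold higher were 18 members, against 3.93% of all genes tested, and 0 were at least 2-fold lower, against 5.25%. The median log2 fold change of the members was 1.3, beside 0.02 for all genes tested. The libraries of the groups did not overlap for any of the 30 members, where 42.9% of all genes tested were separated with CNT1 higher and 38.1% with CNT1 lower. Summed over the members, 50370.0 and 49829.6 RPKM were read in CNT1, against 15933 and 15222.5 RPKM in CNT1-G283E. These sums were 6.84% and 6.80% of the RPKM of all gene models in CNT1 and 2.21% and 2.12% in CNT1-G283E.

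**Figure D1:**
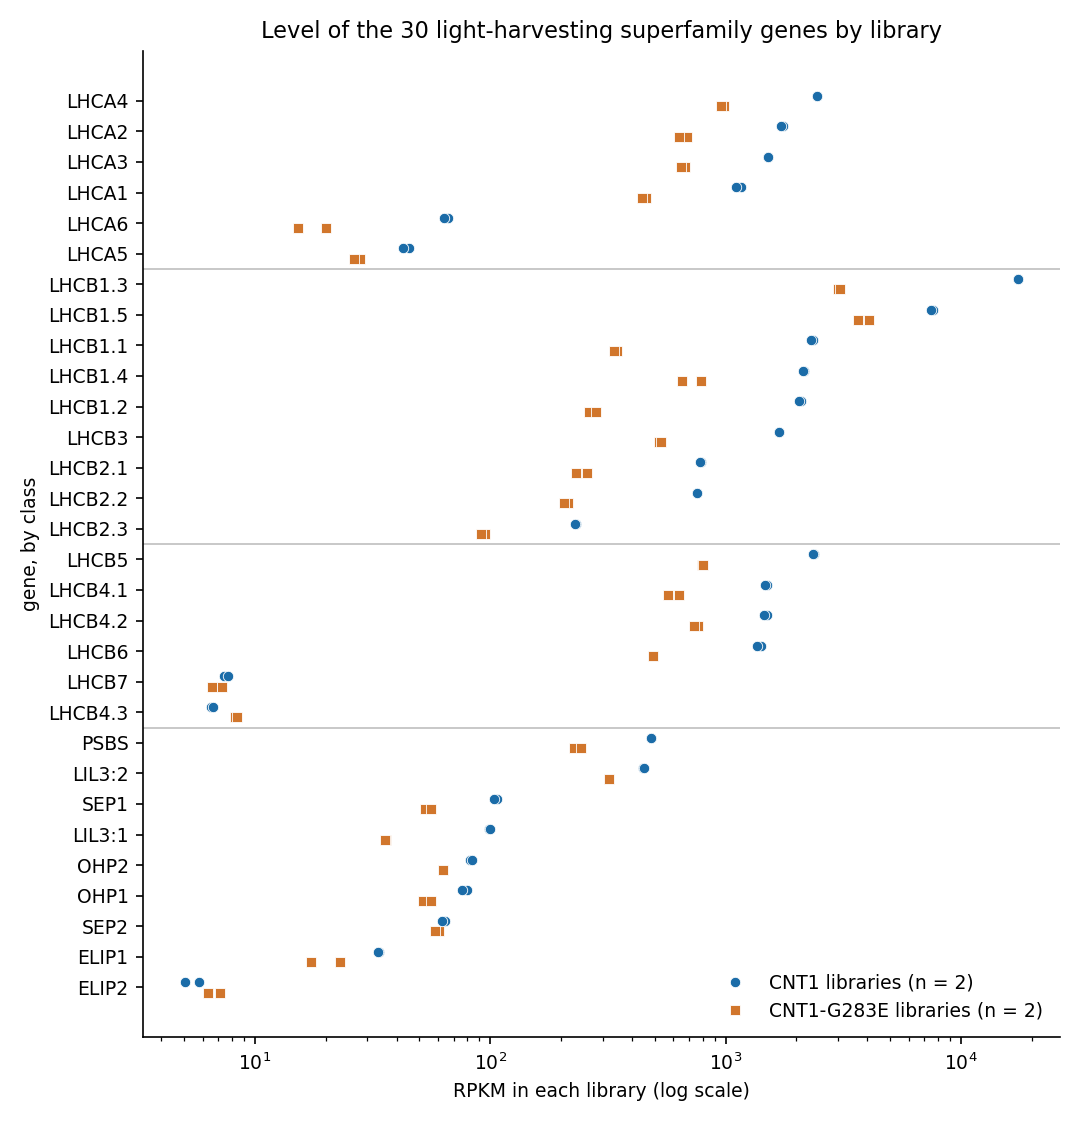
RPKM of the 30 members in each library, on a log axis, with CNT1 and CNT1-G283E libraries as separate points. LHCB1.3 stood highest in CNT1, LHCB1.5 highest in CNT1-G283E, and ELIP2 lowest in both groups.

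The plot of levels by library shows a wide span of levels, from ELIP2 at 5.05 RPKM in CNT1 replicate 1 to LHCB1.3 at 17497 RPKM in the same library. The order of the members was much alike in the groups, with a Spearman rho of 0.94 between the mean levels of the 30 genes. Members with a higher level in CNT1-G283E tended to have a larger log2 fold change (rho 0.48 over the 30 genes). Both are descriptions across genes of the same 4 libraries, which are not independent replicates, and the level also enters the fold change.

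The trimer genes LHCB1, LHCB2 and LHCB3 had the largest median log2 fold change of the classes, 1.68, with 9 of 9 higher, 8 at least 2-fold. LHCB1.3 (AT1G29930) had 17497 and 17429 RPKM in CNT1, against 2989.7 and 3050.4 RPKM in CNT1-G283E. It was the most abundant of all gene models in CNT1 and ranked 7 in CNT1-G283E, and its log2 fold change was 2.53 ± 0.06 (SE), with an adjusted p of 1.2e-07 by limma. LHCB1.1 (AT1G29920) had 2344 and 2316 RPKM in CNT1, against 346 and 336 RPKM in CNT1-G283E. Its groups lay far apart, at a ratio of means of 6.83 and a log2 fold change of 2.77 ± 0.04 (SE, limma adjusted p 2.73e-08). LHCB1.2 (AT1G29910) had 2085 and 2058 RPKM in CNT1, against 263 and 282 RPKM in CNT1-G283E. This was the largest change among the members, a ratio of 7.60 and a log2 fold change of 2.92 ± 0.05 (SE, limma adjusted p 2.99e-08). Ranked by log2 fold change among the 19201 genes tested, LHCB1.2 stood at 36, LHCB1.1 at 49 and LHCB1.3 at 60.

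The chromosome 2 copies changed less. LHCB1.4 (AT2G34430) had 2155 and 2129 RPKM in CNT1, against 785 and 652 RPKM in CNT1-G283E, a log2 fold change of 1.58 ± 0.08 (SE, limma adjusted p 2.13e-06). LHCB1.5 (AT2G34420) had 7647 and 7474 RPKM in CNT1, against 4072 and 3643 RPKM in CNT1-G283E. It ranked 2 among all gene models in both groups, and its change was the smallest of the trimer genes, 0.97 ± 0.07 on the log2 scale (SE, limma adjusted p 1.55e-05). Quantile scaling, which gives every library the same value at a given rank, brought LHCB1.3 to 1.77 (adjusted p 3.06e-07; range over its alternatives 1.11e-13 to 7.43e-05) and LHCB1.5 to 0.17 (adjusted p 0.18), while the LHCB1.5 adjusted p under the other alternatives ran up to 0.00119. With the copies summed, the log2 fold change was 2.59 ± 0.07 (SE, limma adjusted p 1.35e-07) for LHCB1.1 to LHCB1.3 and 1.09 ± 0.08 (SE, 1.14e-05) for LHCB1.4 with LHCB1.5, so the gap between the loci was also there with the reads of each locus pooled. Pooling within a locus does not deal with reads that match copies of both loci.

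**Figure D2:**
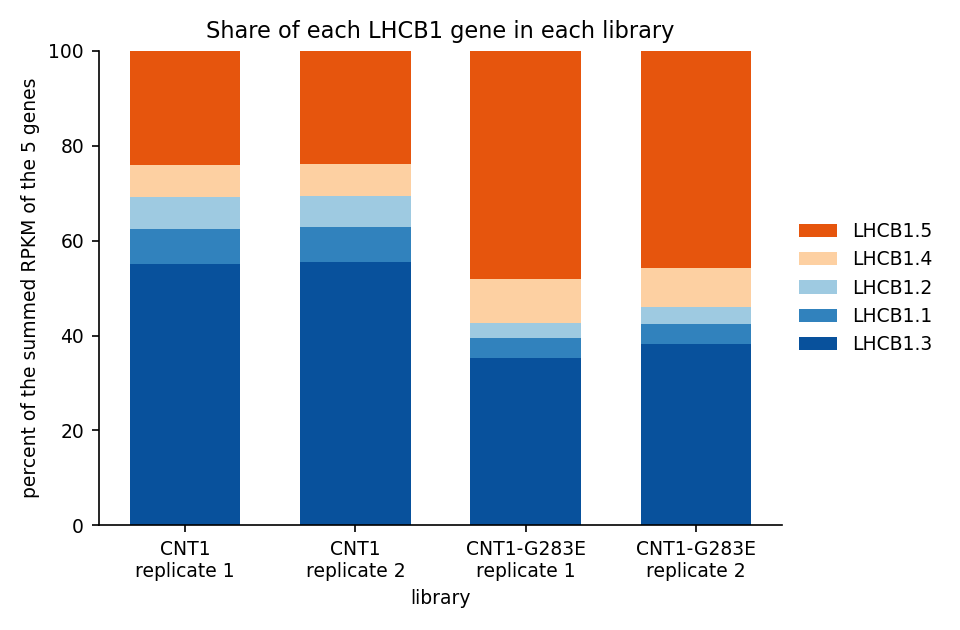
Percent of the summed RPKM of the 5 LHCB1 genes held by each copy, in each library of CNT1 and CNT1-G283E. LHCB1.3 held 55.1% and 55.5% in CNT1, and LHCB1.5 held 48.2% and 45.7% in CNT1-G283E.

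The makeup of the LHCB1 transcripts differed between the groups, as the plot of LHCB1 shares shows. LHCB1.3 held 55.1% and 55.5% of their summed RPKM in CNT1, against 35.4% and 38.3% in CNT1-G283E. LHCB1.5 held 24.1% and 23.8% in CNT1, against 48.2% and 45.7% in CNT1-G283E. The most abundant copy was thus LHCB1.3 in both CNT1 libraries and LHCB1.5 in both CNT1-G283E libraries, with a ratio of LHCB1.3 to LHCB1.5 of 2.29 and 2.33 in CNT1 against 0.734 and 0.837 in CNT1-G283E. LHCB1.4, the neighbour of LHCB1.5, held 6.79% and 6.78% in CNT1 against 9.28% and 8.19% in CNT1-G283E. With 2 libraries against 2, the exact two-sided permutation p of each share or ratio given here and below was 0.333, the smallest that this design allows.

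LHCB2 proteins are the trimer subunits phosphorylated most readily in state transitions, and LHCB3 is found only in part of the trimers. LHCB2.2 (AT2G05070) had 757 and 755 RPKM in CNT1, against 214 and 205 RPKM in CNT1-G283E, and rose by 1.85 ± 0.04 (log2, SE; limma adjusted p 7.96e-08). LHCB2.1 (AT2G05100) had 783 and 779 RPKM in CNT1, against 257 and 231 RPKM in CNT1-G283E, and rose by 1.68 ± 0.05 (log2, SE; limma adjusted p 2.77e-07). Its coding sequence is 96.6% identical to that of LHCB2.2, with a run of 152 identical bases. Summed, LHCB2.1 and LHCB2.2 gave a log2 fold change of 1.76 ± 0.05 (SE, limma adjusted p 1.74e-07). LHCB2.3 (AT3G27690), the least abundant of the 3, had 232 and 229 RPKM in CNT1, against 95.4 and 91.6 RPKM in CNT1-G283E, and rose by 1.29 ± 0.04 (log2, SE; limma adjusted p 2.26e-07). LHCB3 (AT5G54270) had 1690.2 and 1692 RPKM in CNT1, against 523 and 534 RPKM in CNT1-G283E, a log2 fold change of 1.68 ± 0.04 (SE, limma adjusted p 1.23e-07). In each of these genes every CNT1 library was above every CNT1-G283E library, as was so for 42.9% of all genes tested.

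Among the 6 monomeric antenna genes, 4 were higher, LHCB4.3 was lower and LHCB7 was not called, with a median log2 fold change of 1.14. LHCB5 (AT4G10340), which encodes the linker CP26, had 2365 and 2359.6 RPKM in CNT1, against 795 and 798 RPKM in CNT1-G283E, and its log2 fold change of 1.57 ± 0.04 (SE, limma adjusted p 1.74e-07) was the largest of this class. LHCB6 (AT1G15820), which encodes CP24, had 1416 and 1366 RPKM in CNT1, against 492 and 490.4 RPKM in CNT1-G283E, and rose by 1.5 ± 0.04 (log2, SE; limma adjusted p 1.8e-07). For both linkers, each CNT1 library lay above each CNT1-G283E library, as was so for 42.9% of all genes tested.

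The 3 LHCB4 genes, which encode forms of CP29, did not move together. LHCB4.1 (AT5G01530) had 1496 and 1477 RPKM in CNT1, against 634 and 569 RPKM in CNT1-G283E, a log2 fold change of 1.31 ± 0.06 (SE, limma adjusted p 1.03e-06). LHCB4.2 (AT3G08940) had 1499 and 1458 RPKM in CNT1, against 764 and 736 RPKM in CNT1-G283E, a log2 fold change of 0.98 ± 0.05 (SE, limma adjusted p 1.36e-06). LHCB4.1 and LHCB4.2 were nearly level in CNT1 (ratio 0.998 and 1.01), and LHCB4.1 was below LHCB4.2 in CNT1-G283E (0.829 and 0.773). LHCB4.3 (AT2G40100) had 6.53 and 6.63 RPKM in CNT1, against 8.27 and 8.39 RPKM in CNT1-G283E, with 239 recovered reads in each CNT1 library. It fell by 0.30 ± 0.08 on the log2 scale (SE, limma adjusted p 0.00979). The call was lost without CNT1 replicate 1 (-0.29, adjusted p 0.0643) and without CNT1 replicate 2 (-0.31, 0.0512), and its adjusted p under the other alternatives lay between 0.00627 and 0.0259. LHCB4.3 is the most divergent of the 3, at 65.0% coding identity to LHCB4.1, against 81.1% between LHCB4.1 and LHCB4.2. LHCB7 (AT1G76570), a weakly expressed relative, had 7.41 and 7.72 RPKM in CNT1, against 7.28 and 6.59 RPKM in CNT1-G283E. Its log2 difference of 0.11 ± 0.08 (SE, limma adjusted p 0.281) was not called.

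**Figure D3:**
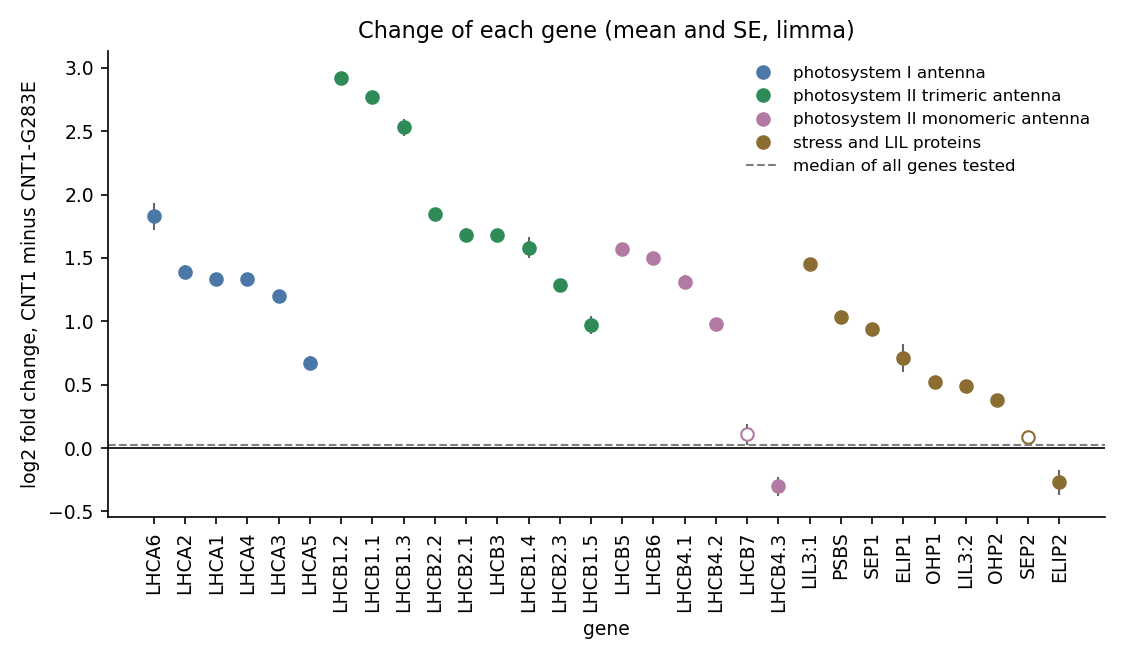
Log2 fold change of each member, CNT1 minus CNT1-G283E on log2(RPKM + 1), with standard errors, grouped by class. Open circles mark the 2 genes not called, LHCB7 and SEP2, and the dashed line is the median of all genes tested, 0.02.

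All 6 LHCA genes rose, and 5 did so at least 2-fold. Their median log2 fold change was 1.33. LHCA1 to LHCA4 build the stable antenna belt of photosystem I, and they changed to a like extent, between 1.2 (LHCA3) and 1.39 (LHCA2), as the plot of fold changes shows. LHCA4 (AT3G47470), the most abundant, had 2458 and 2441 RPKM in CNT1, against 985 and 959 RPKM in CNT1-G283E, a log2 fold change of 1.33 ± 0.05 (SE, limma adjusted p 3.68e-07). LHCA3 (AT1G61520) had 1509.6 and 1518 RPKM in CNT1, against 673 and 644 RPKM in CNT1-G283E (limma adjusted p 5.05e-07). LHCA2 (AT3G61470) had 1749.9 and 1719 RPKM in CNT1, against 688 and 635 RPKM in CNT1-G283E (5.01e-07). LHCA1 (AT3G54890) had 1162 and 1109.9 RPKM in CNT1, against 460.3 and 443 RPKM in CNT1-G283E, and rose by 1.33 ± 0.05 (log2, SE; limma adjusted p 3.44e-07). These 4 genes showed no overlap between the groups, with CNT1 higher, as was so for 42.9% of all genes tested.

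LHCA5 and LHCA6 are scarce proteins that link photosystem I to the chloroplast NADH dehydrogenase-like complex, and they changed by different amounts. LHCA6 (AT1G19150) had 66.3 and 63.4 RPKM in CNT1, against 15.3 and 20.05 RPKM in CNT1-G283E, the largest change of the class at 1.83 ± 0.11 (log2, SE; limma adjusted p 3.95e-06). LHCA5 (AT1G45474) had 45.1 and 42.5 RPKM in CNT1, against 27.9 and 26.3 RPKM in CNT1-G283E, the smallest at 0.67 ± 0.05 (log2, SE; limma adjusted p 2.21e-05). LHCA6 was thus above LHCA5 in both CNT1 libraries and below it in both CNT1-G283E libraries. The start of LHCA6 lies beside AT1G19140, whose annotation covers the bases before it, and the sources used here do not give whether reads were counted by strand.

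Among the genes for relatives of the antenna proteins, 7 of 9 were higher, 2 of them at least 2-fold, ELIP2 was lower and SEP2 was not called, with a median log2 fold change of 0.52. LIL3:1 (AT4G17600), of a gene pair whose proteins hold geranylgeranyl reductase and protochlorophyllide oxidoreductase at the membrane, had 99.0 and 100.1 RPKM in CNT1, against 36.0 and 35.9 RPKM in CNT1-G283E. It rose by 1.45 ± 0.04 (log2, SE; limma adjusted p 1.58e-07), the largest change of this class. LIL3:2 (AT5G47110), the more abundant copy, had 447 and 452 RPKM in CNT1, against 321 and 319.8 RPKM in CNT1-G283E, and rose by 0.49 ± 0.04 (log2, SE; limma adjusted p 1.98e-05). The ratio of LIL3:1 to LIL3:2 was 0.222 in each CNT1 library and 0.112 in each CNT1-G283E library. PSBS (AT1G44575) had 484 and 482 RPKM in CNT1, against 228 and 244 RPKM in CNT1-G283E, and rose by 1.03 ± 0.05 (log2, SE; limma adjusted p 9.51e-07).

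OHP1 and OHP2 form a pair needed to assemble photosystem II reaction centres. OHP1 (AT5G02120) rose by 0.52 ± 0.05 (log2, SE; limma adjusted p 5.94e-05) and OHP2 by 0.38 ± 0.04 (SE, 9.1e-05). OHP1 had 79.4 and 76.0 RPKM in CNT1 against 52.0 and 55.8 RPKM in CNT1-G283E. OHP2 (AT1G34000) had 81.9 and 83.5 RPKM in CNT1 against 63.1 and 63.2 RPKM in CNT1-G283E. Their groups did not overlap, with CNT1 higher, as was so for 42.9% of all genes tested, and both changes were below the median of the members. SEP1 (AT4G34190) had 107 and 104 RPKM in CNT1, against 52.7 and 55.9 RPKM in CNT1-G283E, and rose by 0.94 ± 0.05 (log2, SE; limma adjusted p 1.54e-06). SEP2 (AT2G21970), the other stress-enhanced gene, had 64.0 and 62.5 RPKM in CNT1, against 60.6 and 58.1 RPKM in CNT1-G283E. Its difference of 0.09 ± 0.04 (log2, SE; limma adjusted p 0.108) was not called, though it was without CNT1-G283E replicate 1 (0.12, 0.0467), and over its alternatives the adjusted p lay between 0.0351 and 0.41. SEP1 was above SEP2 in CNT1 (ratio 1.66 in both libraries) and below it in CNT1-G283E (0.869 and 0.962).

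ELIP1 and ELIP2 are induced by strong light and are thought to bind free chlorophyll. ELIP1 (AT3G22840) had 33.6 and 33.3 RPKM in CNT1, against 17.4 and 23.0 RPKM in CNT1-G283E, and rose by 0.71 ± 0.11 (log2, SE; limma adjusted p 0.000843), with the CNT1-G283E libraries further apart than those of CNT1. ELIP2 (AT4G14690) had 5.05 and 5.78 RPKM in CNT1, against 7.11 and 6.35 RPKM in CNT1-G283E, from 116 to 155 recovered reads per library. Its log2 fold change of -0.27 ± 0.10 (SE, limma adjusted p 0.0447) passed the threshold by the smallest margin among the members called. The call was lost in 7 of 14 alternatives: without CNT1 replicate 1 (-0.19, adjusted p 0.266), without CNT1-G283E replicate 1 (-0.20, 0.163), with the replicate block (0.0644), and under quantile scaling, no filter, limma-voom, and the total without the members and the 20 most abundant genes. Over all alternatives fitted the adjusted p lay between 0.0325 and 0.266. The ELIP coding sequences are 73.4% identical with no identical run over 26 bases.

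The makeup of the superfamily's transcripts differed between the groups as well. The trimer genes held 69.9% and 70.0% of the members' summed RPKM in CNT1, against 59.9% and 59.3% in CNT1-G283E. The 3 chromosome 1 copies of LHCB1 alone held 43.5% and 43.8% in CNT1, against 22.6% and 24.1% in CNT1-G283E. All other classes held smaller shares in CNT1, with LHCA genes at 13.9% and 13.8% against 17.9% and 17.9% in CNT1-G283E. The monomeric antenna genes held 13.5% and 13.4% in CNT1, against 16.9% and 17.1% in CNT1-G283E. ELIP, OHP, SEP, LIL3 and PSBS genes together held 2.78% and 2.81% in CNT1, against 5.26% and 5.66% in CNT1-G283E. Shares of a whole are tied, so the larger share of the chromosome 1 copies lowers those of the other genes. The summed RPKM of every class was higher in CNT1. The ratio of all LHCB to all LHCA transcripts was 6.01 and 6.03 in CNT1, against 4.3 and 4.27 in CNT1-G283E. It includes the chromosome 1 copies of LHCB1, which summed to 21926 and 21803 RPKM in CNT1, against 3598.5 and 3668.4 RPKM in CNT1-G283E. The summed RPKM of the monomeric antenna genes was 2.54 times as high in CNT1, near the 2.49 of the LHCA genes. By median log2 fold change, the monomeric antenna genes, at 1.14, were below the LHCA genes, at 1.33.

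Lists of genes that the antenna works with had smaller medians than the superfamily's 1.3. Their counts stand beside the 31.1% higher and 29.0% lower over all genes tested. All 5 genes of antenna targeting and insertion were higher, 2 at least 2-fold, and their median log2 fold change was 0.89. Among them, cpSRP54, a subunit of the chloroplast signal recognition particle, averaged 78.5 ± 0.03 RPKM in CNT1, against 30.6 ± 3.49 RPKM in CNT1-G283E (SD, n = 2 each) and rose by 1.33 ± 0.07 (log2, SE; limma adjusted p 2.59e-06). Its partner cpSRP43, which binds antenna proteins on their way to the thylakoid, rose by 0.89 ± 0.04 (SE, 1.37e-06), and LTD, which hands them over after import, rose by 1.09 ± 0.06 (SE, 2.88e-06). ALB3, the insertase itself, was higher by 0.31 ± 0.04 (log2, SE; limma adjusted p 0.000243).

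Of 5 genes for antenna phosphorylation, 4 were higher, 0 of them at least 2-fold. The kinase gene STN7, which drives state transitions, averaged 29.4 ± 1.2 RPKM in CNT1, against 28.9 ± 0.32 RPKM in CNT1-G283E (SD, n = 2 each) and was not called, at 0.02 ± 0.05 (log2, SE; limma adjusted p 0.755). The phosphatase gene that opposes it, TAP38, rose by 0.42 ± 0.04 (SE, 7.24e-05), and the related kinase gene STN8 rose by 0.61 ± 0.07 (SE, 0.000145). All 7 genes of thermal dissipation and the xanthophyll cycle were higher, with a median of 0.54 and 0 at least 2-fold. The chloroplastic lipocalin gene LCNP, at 0.86 ± 0.05, PGRL1A of cyclic electron flow, at 0.78 ± 0.04, and the violaxanthin de-epoxidase gene VDE, at 0.82 ± 0.08 (log2, SE), had the lowest adjusted p among them.

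Of 6 genes of the chlorophyll b cycle and the last steps of chlorophyll synthesis, 4 were higher and 1 was lower. The chlorophyll synthase gene CHLG averaged 68.5 ± 1.16 RPKM in CNT1, against 24.1 ± 0.60 RPKM in CNT1-G283E (SD, n = 2 each), and rose by 1.47 ± 0.05 (log2, SE; limma adjusted p 2.29e-07). CAO, whose product makes chlorophyll b, rose by 0.76 ± 0.04 (SE, 3.09e-06), and AT1G74470, the geranylgeranyl reductase gene, rose by 0.90 ± 0.05 (SE, 1.87e-06). NYC1, a chlorophyll b reductase that starts its breakdown, averaged 64.1 ± 0.31 RPKM in CNT1, against 103 ± 1.02 RPKM in CNT1-G283E (SD, n = 2 each), and fell by 0.68 ± 0.04 on the log2 scale (SE, limma adjusted p 3.69e-06). NOL, the other chlorophyll b reductase gene, averaged 17.3 ± 0.93 RPKM in CNT1, against 13.4 ± 0.92 RPKM in CNT1-G283E (SD, n = 2 each), and rose by 0.35 ± 0.07 (log2, SE; limma adjusted p 0.00401), so the reductase genes changed in opposite directions. Of 20 nuclear genes for photosystem core and oxygen-evolving subunits, 20 were higher, 15 at least 2-fold, and their median log2 fold change was 1.12. PSAK and PSAD2 of photosystem I, at 1.5 ± 0.04 and 1.4 ± 0.04 (log2, SE), were among the 3 with the lowest adjusted p.

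**Figure D4:**
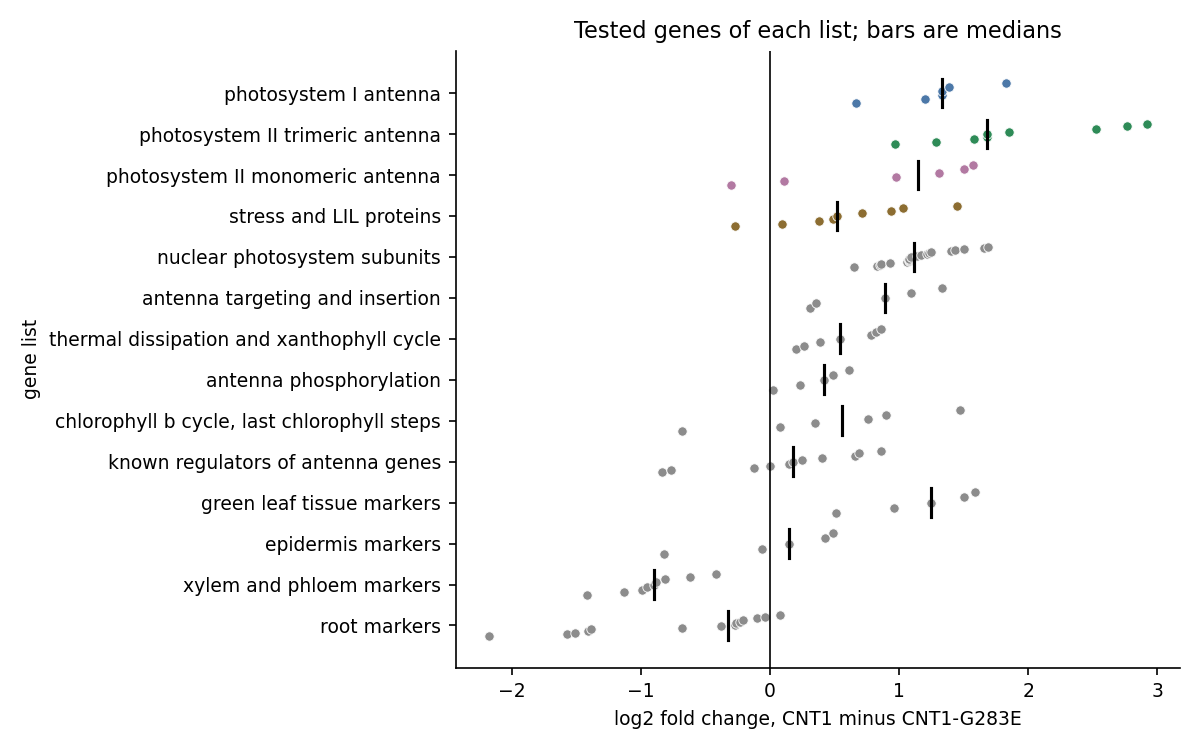
Log2 fold changes (CNT1 minus CNT1-G283E) of the tested genes of each list, with the list's median as a bar. Medians were 1.68 for LHCB1 to LHCB3, 1.33 for LHCA and 1.12 for other photosystem subunits, and -0.90 for xylem and phloem markers.

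The plot by list sets these medians beside the classes of the superfamily. Of 11 known regulators of antenna genes, 5 were higher, 3 lower and 3 not called, with a median of 0.18, beside 31.1% higher and 29.0% lower over all genes tested. GLK1, an activator of antenna genes, averaged 30.1 ± 1.05 RPKM in CNT1, against 18.2 ± 0.66 RPKM in CNT1-G283E (SD, n = 2 each), and rose by 0.69 ± 0.06 (log2, SE; limma adjusted p 2.3e-05). Its paralogue GLK2 averaged 68.7 ± 0.25 RPKM in CNT1, against 74.5 ± 0.92 RPKM in CNT1-G283E and fell by 0.12 ± 0.04 (log2, SE; limma adjusted p 0.0364). The GLK2 call was lost in 7 of 14 alternatives, among them the replicate block (0.0646) and the fits without CNT1 replicate 1 (0.194), CNT1 replicate 2 (0.168) or CNT1-G283E replicate 1 (0.0638), and its adjusted p over the alternatives lay between 0.0204 and 0.194. PIF1, a repressor of greening in the dark, fell by 0.77 ± 0.08 (log2, SE; limma adjusted p 0.000113), whereas the related PIF3 rose by 0.66 ± 0.05 (SE, 1.8e-05). LHY, a morning clock factor, rose by 0.86 ± 0.07 (SE, 2.54e-05), and the GATA factor gene CGA1, with 1.12 ± 0.15 RPKM in CNT1 against 2.81 ± 0.41 RPKM in CNT1-G283E, fell by 0.84 ± 0.13 (log2, SE; limma adjusted p 0.000761). HY5, a light-signalling activator, averaged 17.9 ± 0.22 RPKM in CNT1, against 18.0 ± 1.36 RPKM in CNT1-G283E and was not called (limma adjusted p 0.987).

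Upstream sequences of 5 members are shown because these genes contrast in their change: LHCB1.3 and LHCB1.5 within LHCB1, LHCB4.1 and LHCB4.3 within LHCB4, and LHCA4 as the most abundant photosystem I antenna gene. Each line is the 250 bases before the annotated gene start in the RefSeq TAIR10.1 genome, 5′ to 3′ on the gene's strand. They are chr1:10477635-10477884 (plus) for LHCB1.3, chr2:14523569-14523818 (minus) for LHCB1.5, chr3:17495034-17495283 (minus) for LHCA4, chr5:208616-208865 (plus) for LHCB4.1 and chr2:16745378-16745627 (plus) for LHCB4.3. Capitals mark matches, on either strand, to the G-box CACGTG, the I-box core GATAAG, the GLK-bound motif CCAATC, the CCA1 site forms AAAAATCT and AACAATCT, and the evening element AAAATATCT.
LHCB1.3: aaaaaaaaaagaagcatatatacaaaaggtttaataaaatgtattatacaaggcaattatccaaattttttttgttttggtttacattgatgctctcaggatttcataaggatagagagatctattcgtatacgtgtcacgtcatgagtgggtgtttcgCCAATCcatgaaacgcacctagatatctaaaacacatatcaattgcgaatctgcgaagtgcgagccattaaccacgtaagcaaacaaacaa
LHCB1.5: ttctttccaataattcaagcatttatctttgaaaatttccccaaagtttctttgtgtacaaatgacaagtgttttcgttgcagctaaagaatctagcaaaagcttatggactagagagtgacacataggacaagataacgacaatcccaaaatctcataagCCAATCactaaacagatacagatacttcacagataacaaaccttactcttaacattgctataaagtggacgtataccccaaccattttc
LHCA4: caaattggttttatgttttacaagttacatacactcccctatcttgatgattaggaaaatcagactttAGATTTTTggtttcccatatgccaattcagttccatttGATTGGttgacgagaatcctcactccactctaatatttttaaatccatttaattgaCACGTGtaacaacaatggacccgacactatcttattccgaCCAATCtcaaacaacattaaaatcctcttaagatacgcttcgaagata
LHCB4.1: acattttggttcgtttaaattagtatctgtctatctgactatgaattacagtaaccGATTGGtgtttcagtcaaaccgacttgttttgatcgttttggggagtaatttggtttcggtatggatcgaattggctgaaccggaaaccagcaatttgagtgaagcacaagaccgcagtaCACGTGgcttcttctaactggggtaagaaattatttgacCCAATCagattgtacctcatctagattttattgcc
LHCB4.3: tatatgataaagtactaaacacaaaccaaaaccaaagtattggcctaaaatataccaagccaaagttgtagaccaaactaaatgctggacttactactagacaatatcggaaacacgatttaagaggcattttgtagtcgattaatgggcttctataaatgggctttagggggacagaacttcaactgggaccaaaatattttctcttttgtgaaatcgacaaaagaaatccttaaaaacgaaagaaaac
LHCA4 held matches to 3 of these motifs, LHCB4.1 to the G-box and the GLK-bound motif, and LHCB1.3 and LHCB1.5 to the GLK-bound motif, whereas the LHCB4.3 window held none. A match is a description of letters and not a binding site.

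Over all members, the motifs were counted on both strands in the 500 bases before the coding start, which include any leader, beside 27443 windows of the same length for all genes. A G-box was found in 12 of 30 members (40%, against 9.3% of all windows), the GLK-bound motif in 15 (50%, against 21.3%), the I-box core in 13 (43.3%, against 23.6%) and a CCA1 site form in 9 (30%, against 17.1%). The evening element was found in LHCA5 alone (3.3%, against 4.0%), with 3 matches. TATAAA was found in 20 (66.7%, against 64.2%). No matches to different motifs overlapped in the members. In this window the classes differed in their matches: the G-box was in 5 of 6 LHCA genes and in 1 of the 9 trimer genes, LHCB2.3, while the GLK-bound motif was in 6 of the trimer genes. In windows of 500 bases before the gene start, the shares were 26.7% for the G-box (9.3% of all), 46.7% for the GLK-bound motif (19.7%), 33.3% for the CCA1 site forms (15.9%) and 23.3% for the I-box core (22.5%). There the G-box was in 1 of 6 LHCA genes and in 1 of the 9 trimer genes. Its contrast between these classes was thus seen only before the coding start.

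**Figure D5:**
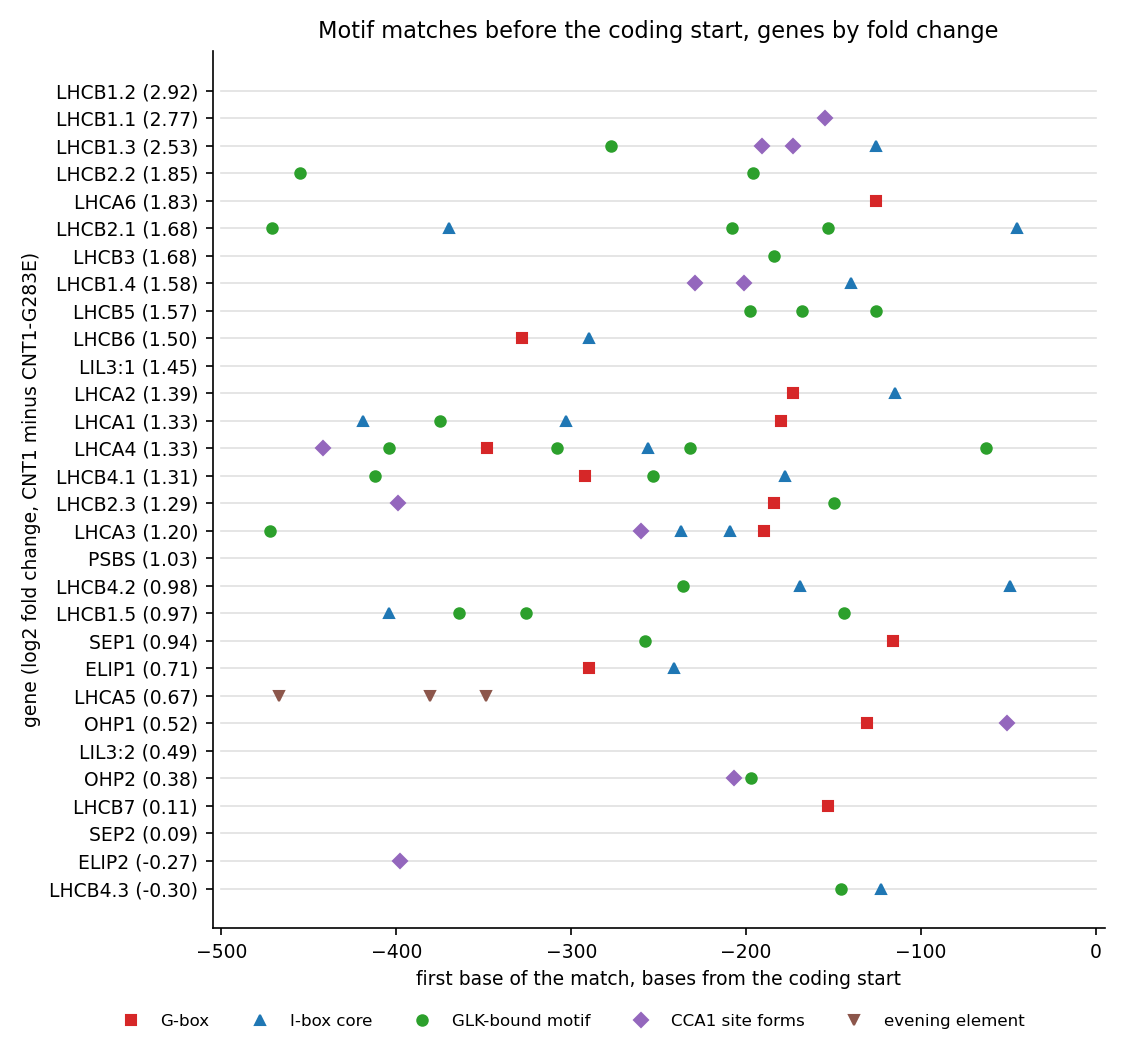
First base of each motif match, in bases from the coding start, for the 30 members ordered by log2 fold change (in brackets, CNT1 minus CNT1-G283E). LHCB1.2, with the largest change at 2.92, had no match to the 5 motifs drawn, and LHCB4.3, with the lowest at -0.30, had matches to the GLK-bound motif and the I-box core.

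The map of motif matches shows no arrangement shared by the members with the largest changes. LHCB1.1 had a CCA1 site form alone, LHCB1.3 had 2 CCA1 site forms with a GLK-bound motif and an I-box core, and LHCB1.2, LIL3:1, LIL3:2, PSBS and SEP2 had none of the 5 motifs drawn. LHCB1.4 had 2 CCA1 site forms and LHCB1.5 had none but 3 GLK-bound motifs, while each had 1 I-box core and 1 TATAAA match. The neighbours on chromosome 2 thus shared some matches and differed in others.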

How the data were processed

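Poly(A) RNA of seedlings was sequenced, per the labels' protocols. Bowtie2 2.2.2 and the TAIR10 genome are named in the submitters' processing notes. The authors deposited RPKM for 27416 gene models per library. The sources used here do not give the counting step, its treatment of multiply matching reads or its use of strand. Values were taken as log2(RPKM + 1), which understates changes of low genes. The low-value filter (at least 1 RPKM in 2 or more libraries) left 19201 genes, which limma 3.58.1 in R 4.3.3 tested together (group term, empirical Bayes with intensity trend, Benjamini-Hochberg adjustment, call at an adjusted p under 0.05), after a check on simulated data. Ratios are of mean RPKM. Each library depth was recovered as the total that low rows (up to 0.2 RPKM) gave most often, taking whole reads at annotated lengths. The reads of each row were then sought at a length where all 4 values were whole, within 0.02 reads for low rows. All 24360 rows above 0 were whole at some length, 20.8% of them at an annotated length, so reads depend on the length taken. Recovered reads summed to between 102.9% and 103.2% of the depth, so some rows were given too many. For LIL3:1 the length taken was 2002 bases, longer than its annotated gene of 1787 bases. Replicates differed by more than counting noise (chi-square per gene 1.81 in CNT1 and 4.68 in CNT1-G283E).

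The members, gene lists and tests were chosen with earlier results of these data known. All 30 members are reported. From each partner list up to 3 called genes per direction by adjusted p are named, apart from a few not printed. ALB3, STN7, HY5 and NOL were added after their values were seen. Genes were named from RefSeq TAIR10.1, which matched 26719 models. Identities are from global alignments of coding sequences (Biopython 1.88), in place of the planned protein identity and helix motif, for which no protein table was used here. The test kept for count files was not run, since the files hold RPKM. Alternatives covered scaling, filter, variance model, pseudocount, replicate block, left-out libraries, limma-voom on recovered reads, a 2-fold minimum and summed copies. Permutation tests used scipy 1.17.1.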

Additional observations from a re-analysis of the deposited data

How the results depend on the processing

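Of the 30 members, 26 kept their direction and call under all 14 alternatives fitted across all genes and with their near-identical copies summed. The exceptions were LHCB1.5 under quantile scaling (0.17, where LHCB1.3 was called at 1.77), LHCB4.3, ELIP2 and SEP2. The number of members lower, 2 as reported, was 1 under quantile scaling, no filter, the total without the members and the 20 most abundant genes, and limma-voom, 0 with a 2-fold minimum, and between 0 and 2 with a library left out. With ELIP1 and ELIP2 summed, the log2 fold change was 0.52 (adjusted p 0.000792), in place of -0.27 for ELIP2, since ELIP1 holds most of the sum. SEP2 was called with the total without members and abundant genes (0.13, adjusted p 0.0351; range over its alternatives 0.0351 to 0.41). Leaving out a library gave 0 to 1 root markers higher and 6 to 9 lower, and 1 to 3 epidermis markers higher. GLK2 lost its call in 7 of 14 alternatives. In recovered reads, the shares in CNT1 and CNT1-G283E were 15.0% and 19.3% for LHCA, 67.6% and 57.2% for LHCB1 to LHCB3, 14.6% and 18.4% for LHCB4 to LHCB7, and 2.71% and 5.08% for the other relatives; reads are not scaled by length. No shared pattern was seen between same-numbered replicates (correlation of their deviations -0.02 over 19201 genes). The labels do not say whether a number marks a shared day or culture, and this value cannot settle it. With the replicate block, 1 member was lower, ELIP2 having an adjusted p of 0.0644, GLK2 lost its call (0.0646), and over all genes 5791 were higher and 5423 lower, against 5964 and 5566. Scalings moved the median of all genes by under 0.1 log2. At 116 to 287 reads, LHCB4.3, LHCB7 and ELIP2 were the members that depth limits most.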
